A study of Homo sapiens with 10 samples.

Results

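Growth factor receptor tyrosine kinases are membrane proteins that bind a secreted ligand outside the cell, pair up and phosphorylate tyrosines on themselves and on adaptor proteins. From there the signal runs to the RAS-ERK and PI3K-AKT pathways, and it is damped by phosphatases, ubiquitin ligases and feedback inhibitors such as the Sprouty proteins. Several of them drive growth in brain tumours and are drug targets. The set described here held 10 such genes, taken by symbol from the 57820 gene identifiers that were counted in each library. They were the PDGF receptors PDGFRA and PDGFRB, the stem cell factor receptor KIT, the FGF receptor FGFR1, the hepatocyte growth factor receptor MET, the 4 EGF receptor family members EGFR, ERBB2, ERBB3 and ERBB4, and the neurotrophin-3 receptor NTRK3. Their identifiers in the files were ENSG00000134853.7 for PDGFRA, ENSG00000113721.9 for PDGFRB, ENSG00000157404.11 for KIT, ENSG00000077782.15 for FGFR1, ENSG00000105976.10 for MET, ENSG00000146648.11 for EGFR, ENSG00000141736.9 for ERBB2, ENSG00000065361.10 for ERBB3, ENSG00000178568.9 for ERBB4 and ENSG00000140538.12 for NTRK3.

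The data were poly(A) RNA sequencing of D425 and HD-MB03, cell lines grown from human Group 3 medulloblastoma, a childhood tumour of the cerebellum. D425 was represented by 3 libraries labelled shCRX and by 3 controls, of which 2 were parental cells and 1 carried the empty vector. HD-MB03 was represented by 2 libraries labelled shCRX and by 2 controls, 1 parental and 1 empty vector. The hairpins against CRX, a homeobox transcription factor of photoreceptors, were carried by the doxycycline-inducible Tet-pLKO-puro lentivirus in polyclonal populations, and the labels do not give the hairpin of each library. Doxycycline was given at 4 µg/ml for 72 h. Nothing in the labels ties the libraries of a group to separate cultures, so the spread that p-values rest on is that of these samples and may be technical.

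The windows of 250 bases before the annotated starts are shown for 3 genes, because the libraries compared carried a hairpin against a DNA-binding factor and these 3 genes differed between arms or lines in the results that follow. ERBB3 and FGFR1 are not shown, and ERBB2, which also differed, had 0 of the marked boxes in its window. They were read from RefSeq on GRCh38.p14 and run 5′ to 3′ along the gene. Capitals mark the GC box GGGCGG or its reverse complement CCGCCC, the site of SP family factors, which was present in 42.6% of 35116 promoter windows of that length. PDGFRB is at chr5:150155846-150156095 on the minus strand, MET at chr7:116671946-116672195 on the plus strand and EGFR at chr7:55018767-55019016 on the plus strand. A second EGFR start, with its window at chr7:55109589-55109838, had 0 boxes and a GC content of 38.8%, against 73.6% in the window printed.
PDGFRB: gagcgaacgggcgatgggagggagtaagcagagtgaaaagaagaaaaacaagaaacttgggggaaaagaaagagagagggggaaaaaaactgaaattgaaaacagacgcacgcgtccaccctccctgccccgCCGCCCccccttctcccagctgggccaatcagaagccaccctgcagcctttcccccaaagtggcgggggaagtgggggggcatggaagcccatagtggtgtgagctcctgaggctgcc
MET: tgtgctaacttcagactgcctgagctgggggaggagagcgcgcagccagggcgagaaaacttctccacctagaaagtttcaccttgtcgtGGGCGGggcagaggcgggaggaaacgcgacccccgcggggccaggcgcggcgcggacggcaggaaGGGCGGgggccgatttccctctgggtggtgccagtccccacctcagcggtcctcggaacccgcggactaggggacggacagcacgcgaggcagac
EGFR: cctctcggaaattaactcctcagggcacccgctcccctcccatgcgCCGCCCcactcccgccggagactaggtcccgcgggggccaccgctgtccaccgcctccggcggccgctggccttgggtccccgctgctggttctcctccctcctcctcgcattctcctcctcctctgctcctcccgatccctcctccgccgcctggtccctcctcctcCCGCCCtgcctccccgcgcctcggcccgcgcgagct
The core recognised by CRX and its relative OTX2, TAATCC or its reverse complement GGATTA, was searched on both strands and does not overlap the GC box. The search covered 10 windows of 8 members, and FGFR1 and ERBB3 were not among those searched. The core had 0 matches in these windows, against 5.62% of the 35116 windows with at least 1. That says only that these letters are not in these windows.

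Between 1956353 and 18061910 reads were counted per library, and levels are given as CPM, read counts scaled to a common library size after adjusting for library composition. The HD-MB03 controls were the shallowest libraries, at 2083297 and 1956353 counted reads, with 30.9% and 26.4% of reads not aligned. The libraries carry a running number of unstated meaning. It was low, from 20 to 62, in D425 shCRX and in HD-MB03 controls, and it was 110 or more in HD-MB03 shCRX and in D425 controls. The low-numbered libraries were also the shallower ones. Number set, depth and arm therefore cannot be told apart within a line. CRX itself had 20.3, 20.9 and 25.3 CPM in D425 shCRX, against 47.5, 29.7 and 64.9 CPM in D425 controls (log2 fold change -1.10 ± 0.26, SE, edgeR adjusted p = 0.0436), and this call was kept without 1 of the 10 libraries and lost without any of the others, at values from -1.38 to -0.81. In HD-MB03 it went against the label, with 27.7 and 23.5 CPM in the libraries labelled shCRX and 12.5 and 12.3 CPM in controls (log2 fold change 1.04, edgeR adjusted p = 0.174). Of the defining genes of the tumour type, OTX2 stood between 1482.55 and 2566.08 CPM and MYC between 967.94 and 5220.93 CPM over the 10 libraries. In D425, 4 of 9 tested Group 3 and neuronal markers were lower in shCRX and 0 higher, against 1.37% and 1.61% of all genes tested. The median log2 fold change over the 9 was -0.94. The 4 were CRX itself, which the hairpins target, and IMPG2, GABRA5 and the synaptic vesicle gene SYP. SYP had 64.1, 67.8 and 92.3 CPM in D425 shCRX and 241.251, 209.879 and 271.392 CPM in D425 controls. The summed level of all 12 listed markers was 3049 to 4760 CPM in D425 shCRX and 5842 to 6608 CPM in D425 controls. OTX2 and MYC, which were not called, had the highest levels of the 12 in D425. The part of these markers in the receptor changes of D425 was not tested. The red cell gene HBB and the mast cell genes TPSAB1 and CPA3 had 0 counts in every library, as did AIF1 and CD3E. Other genes of this list of 8 blood and mast cell markers were detected. PTPRC, a leukocyte gene, had 10.6 CPM in the D425 vector library and 0 to 1.79 CPM in the other D425 libraries. CD79A was present in every D425 library at up to 0.273 CPM, and CD68 did not exceed 0.091 CPM.

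Of the 10 members, 8 passed the filter on low counts and were tested. PDGFRA, the receptor of PDGF-AA and PDGF-CC, had 11 counts in all, with 0, 0 and 0 in D425 shCRX, 5, 0 and 0 in D425 controls, 1 and 3 in HD-MB03 shCRX and 0 and 2 in HD-MB03 controls. NTRK3 had 4 counts in all. In these libraries the expressed members were PDGFRB, MET, FGFR1, ERBB2 and ERBB3 in both lines, and EGFR in HD-MB03.

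**Figure D1:**
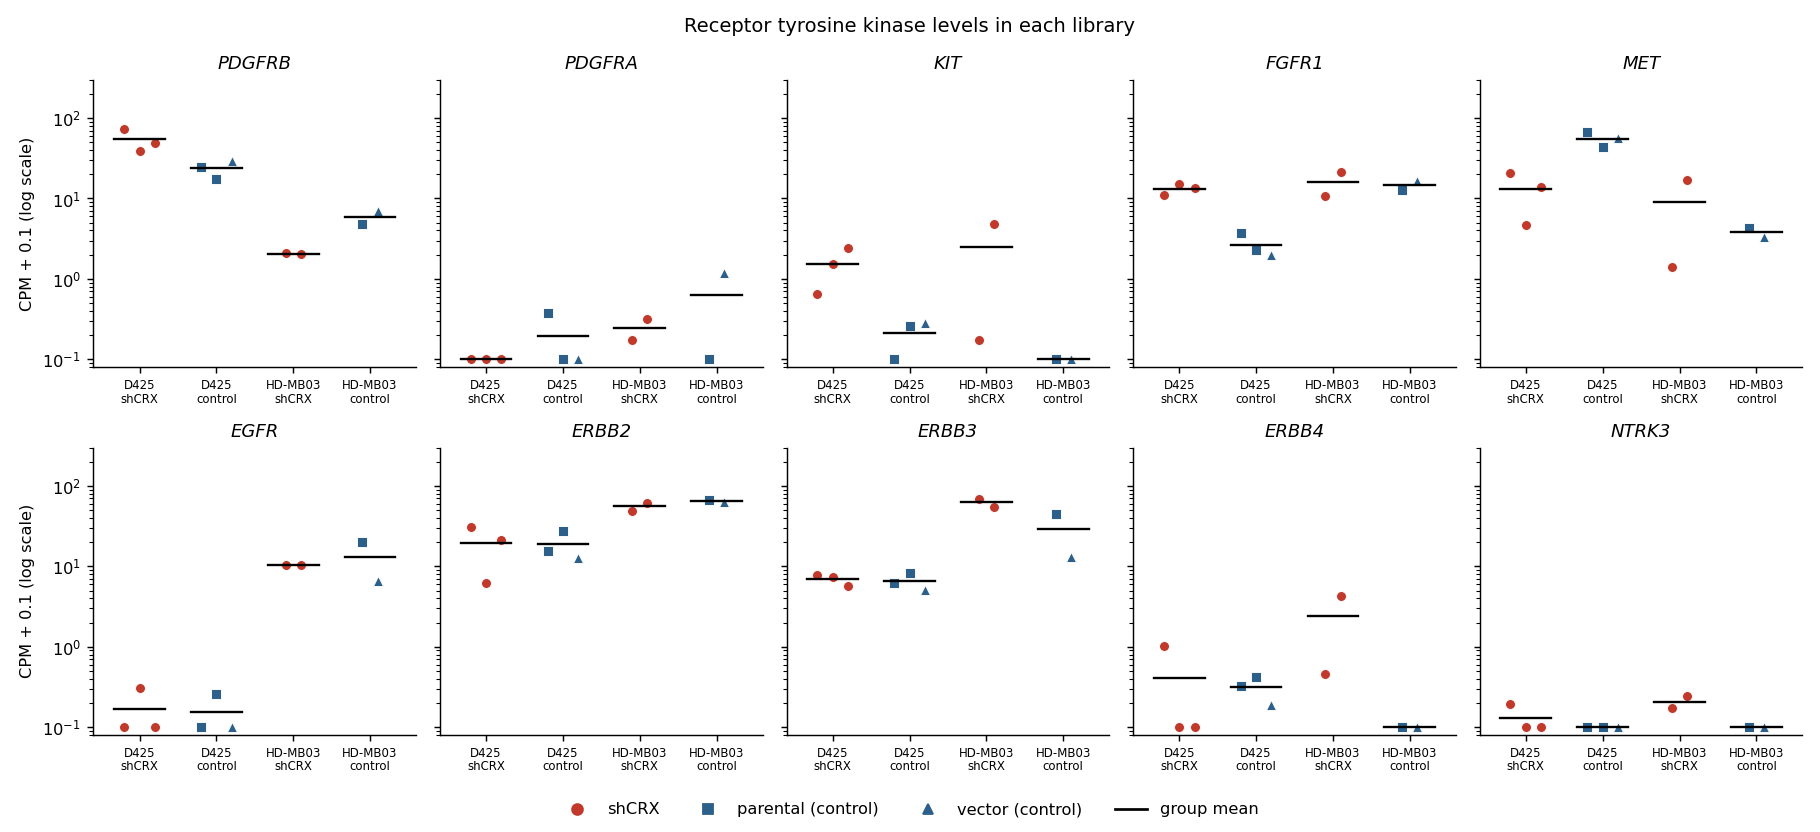
CPM + 0.1 on a log axis for each of the 10 receptor genes, with 1 point per library and a bar at the mean of each group of D425 and HD-MB03 libraries. FGFR1 and PDGFRB are higher in all 3 D425 shCRX libraries than in all 3 D425 controls, EGFR is near 0 in D425, and KIT, MET and ERBB4 are each high in 1 of the 2 HD-MB03 shCRX libraries.

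Levels of different genes are compared per kilobase of exon, since longer transcripts give more reads. The length joins all annotated exons of a gene, so it can exceed that of any 1 transcript. In D425 shCRX the order was PDGFRB with a mean of 7.59 CPM per kb, ERBB2 with 1.89, MET with 1.85, FGFR1 with 0.947, ERBB3 with 0.760 and KIT with 0.258. PDGFRB stood apart from ERBB2, and ERBB3 from KIT, whereas the libraries of ERBB2, MET, FGFR1 and ERBB3 overlapped from each to the next. In D425 controls MET came first, with a mean of 7.88 CPM per kb, before PDGFRB with 3.32, ERBB2 with 1.81, ERBB3 with 0.711 and FGFR1 with 0.186. Of these neighbours only PDGFRB and ERBB2 overlapped. In HD-MB03 shCRX the order was ERBB3 with 6.89 CPM per kb, ERBB2 with 5.40, MET with 1.28, FGFR1 with 1.15, EGFR with 0.817, KIT with 0.431 and PDGFRB with 0.276. ERBB3 did not overlap ERBB2, nor ERBB2 MET, and from MET on each gene overlapped the next. The gap between ERBB3 and ERBB2 depended on the length used. In CPM with no length they overlapped, at 69.7 and 54.9 for ERBB3 and 49.4 and 62.2 for ERBB2. HD-MB03 controls held ERBB2 at 6.34 CPM per kb, ERBB3 at 3.19, FGFR1 at 1.05, EGFR at 1.05, PDGFRB at 0.816 and MET at 0.524, with overlap between FGFR1 and EGFR and between EGFR and PDGFRB. First in order stood PDGFRB in D425 shCRX, MET in D425 controls, and ERBB3 and ERBB2, next to each other, in both HD-MB03 groups.

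The lines were compared over both arms, as the mean of the difference between shCRX libraries and that between controls, so that a difference between number sets of equal size in both lines cancels. Against a background of 46% of 16006 genes called, 6 of the 8 members tested passed, 2 higher and 4 lower in D425. The libraries of the lines did not overlap for 4 of the 8, against 29.1% of all genes tested. PDGFRB, the receptor of PDGF-BB and PDGF-DD, was higher in D425, and MET also passed in that direction. EGFR, ERBB2, ERBB3 and FGFR1 were lower in D425 than in HD-MB03.

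PDGFRB had 74.0, 39.3 and 49.1 CPM in D425 shCRX and 24.6, 17.2 and 29.3 CPM in D425 controls, against 2.00 and 1.93 CPM in HD-MB03 shCRX and 4.68 and 6.97 CPM in HD-MB03 controls. Every D425 library was above every HD-MB03 library. The log2 fold change between lines was 3.40 ± 0.27 (SE; 95% confidence limits 2.81 and 3.99; edgeR adjusted p = 7.7e-07). PDGFRB is also a marker of pericytes and fibroblasts, so 13 other markers of those cells were summed. They reached 32.1 to 41.9 CPM in D425 shCRX, 22.4 to 24.8 in D425 controls, 24.5 to 53.1 in HD-MB03 shCRX and 24.1 to 44.8 in HD-MB03 controls. Of them, 1 had 0 counts in each of the first 3 groups and 3 in HD-MB03 controls, and THY1 did not exceed 0.520 CPM in any library. Between the lines, of the 10 markers tested, TAGLN was higher in D425 and ACTA2 and NOTCH3 lower. Their part in the result was not tested.

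MET had 20.8, 4.55 and 13.8 CPM in D425 shCRX and 67.3, 43.3 and 55.9 CPM in D425 controls, against 1.29 and 16.8 CPM in HD-MB03 shCRX and 4.16 and 3.22 CPM in HD-MB03 controls. The lines overlapped through HD-MB03 shCRX replicate 2, which was above 2 of the 3 D425 shCRX libraries. The log2 fold change between lines was 2.23 ± 0.65 (SE; 95% confidence limits 0.81 and 3.66; edgeR adjusted p = 0.015). It was 0.57 between the shCRX libraries alone (edgeR adjusted p = 0.603) and 1.85 within the low number set (edgeR adjusted p = 0.203). The call was also lost without the HD-MB03 parental library (2.35, edgeR adjusted p = 0.053) or the HD-MB03 vector library (2.16, edgeR adjusted p = 0.0595), and the value was 3.63 without HD-MB03 shCRX replicate 2. HGF, the ligand of MET, was near 0, with 0.056 CPM in D425 parental replicate 1 and 0 counts in the other 9 libraries.

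EGFR was nearly absent from D425, with 0, 1 and 0 counts in shCRX and 0, 2 and 0 in controls. In HD-MB03 it had 10.2 and 10.2 CPM in the libraries labelled shCRX and 19.8 and 6.43 CPM in controls. With 3 counts in all of D425 and 336 in HD-MB03, its level was 215 times higher in HD-MB03 (95% exact interval 72.8 to 1046, counting error alone; edgeR adjusted p = 1.42e-06). At the floor of 3 counts, the D425 libraries could have shown levels from 0.166 to 0.824 CPM.

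ERBB2, the ligandless partner of the other EGF receptor family members, had 31.2, 6.204 and 21.2 CPM in D425 shCRX and 15.6, 27.7 and 12.7 CPM in D425 controls, against 49.4 and 62.2 CPM in HD-MB03 shCRX and 67.7 and 63.3 CPM in HD-MB03 controls. Its log2 fold change between lines was -1.65 ± 0.35 (SE; 95% confidence limits -2.41 and -0.89; edgeR adjusted p = 0.00247). ERBB3, a neuregulin receptor with weak kinase activity that signals through its partners, had 7.75, 7.24 and 5.63 CPM in D425 shCRX and 6.05, 8.23 and 4.999 CPM in D425 controls. In HD-MB03 it had 69.7 and 54.9 CPM in the libraries labelled shCRX and 44.8 and 12.9 CPM in controls. The log2 fold change between lines was -2.66 ± 0.29 (SE; 95% confidence limits -3.28 and -2.04; edgeR adjusted p = 1.18e-05). All D425 libraries were below all HD-MB03 libraries for EGFR, ERBB2 and ERBB3.

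FGFR1 differed between the arms in D425, where arm, number set and depth cannot be told apart. D425 shCRX had 10.9, 14.9 and 13.6 CPM and D425 controls 3.64, 2.18 and 1.91 CPM, against 10.8 and 21.1 CPM in HD-MB03 shCRX and 12.5 and 16.6 CPM in HD-MB03 controls. Averaged over both arms it was lower in D425, with a log2 fold change of -1.38 ± 0.27 (SE; 95% confidence limits -1.97 and -0.79; edgeR adjusted p = 0.00123). Between the shCRX libraries alone the value was -0.29 (edgeR adjusted p = 0.572), and within the low number set it was -0.16 (edgeR adjusted p = 0.793). KIT and ERBB4 were not called between lines (edgeR adjusted p = 0.786 and 0.792).

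**Figure D2:**
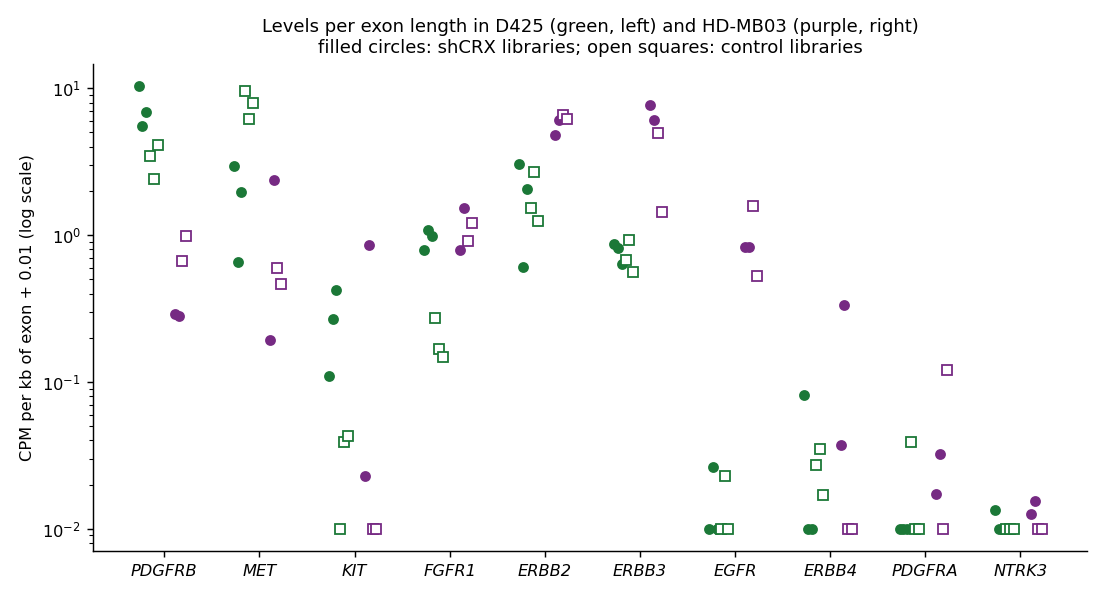
CPM per kb of exon + 0.01 on a log axis for the 10 receptor genes in D425 and HD-MB03, with filled circles for shCRX and open squares for control libraries. PDGFRB in D425 and EGFR, ERBB2 and ERBB3 in HD-MB03 do not overlap with the other line, and FGFR1 in D425 is split by arm.

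In D425, FGFR1 and PDGFRB rose in the shCRX libraries, and the other 6 members tested did not pass. Across all genes 2.97% were called, 1.61% higher and 1.37% lower. FGFR1, which binds FGFs together with heparan sulfate and recruits the adaptor FRS2, averaged 13.1 ± 2.04 CPM in shCRX and 2.58 ± 0.931 CPM in controls (SD, n = 3 each). The groups did not overlap, and the log2 fold change was 2.31 ± 0.36 (SE; 95% confidence limits 1.54 and 3.08; edgeR adjusted p = 0.00515). It stayed called without any 1 of the 10 libraries, with log2 fold changes from 2.15 to 2.66. The D425 shCRX libraries lay within the range of the HD-MB03 libraries, and the D425 controls below it. Since these are bulk samples, more cells with a transcript and more transcript per cell cannot be told apart.

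PDGFRB averaged 54.1 ± 17.9 CPM in D425 shCRX and 23.7 ± 6.09 CPM in D425 controls (SD, n = 3 each), with no overlap. The 13 fibroblast and pericyte markers summed to 32.1 to 41.9 CPM in D425 shCRX and 22.4 to 24.8 CPM in D425 controls, with no overlap. None of the 10 tested was called (0 by edgeR, with 2 at an unadjusted p under 0.05), at a median log2 fold change of 0.49. Of the 10, 6 had a positive log2 fold change. Named after their values were seen, MCAM had 11.7, 12.4 and 8.70 CPM in shCRX and 3.53, 2.90 and 4.09 CPM in controls, and COL1A1 had 9.41, 7.86 and 8.95 CPM in shCRX and 4.37, 5.65 and 2.09 CPM in controls. DCN went the other way, with 0, 1.45 and 1.28 CPM in shCRX and 2.07, 2.10 and 3.00 CPM in controls. The part of these markers in the PDGFRB value was not tested. PDGFRB had a log2 fold change of 1.20 ± 0.27 (SE; 95% confidence limits 0.61 and 1.79; edgeR adjusted p = 0.035). It was kept without D425 shCRX replicate 2 or either HD-MB03 shCRX library. It was lost without D425 shCRX replicate 1 (0.88), D425 shCRX replicate 3 (1.24), D425 parental replicate 1 (1.23), D425 parental replicate 2 (0.98), the D425 vector library (1.38), or the HD-MB03 parental (1.19) or vector (1.19) library, with edgeR adjusted p from 0.0519 to 0.102. PDGFRB transcripts have a GC content of 57.6%, against a median of 48.2% over the genes tested, and fold changes in D425 rose with GC content across genes (Spearman rho 0.277, a description over genes). With the trend on GC content and length removed, the value was 1.09 (edgeR adjusted p = 0.0577).

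MET had the lowest fold change of the members in D425. It averaged 13.04 ± 8.14 CPM in shCRX and 55.5 ± 12.03 CPM in controls (SD, n = 3 each), and each shCRX library was below each control. The log2 fold change was -2.05 ± 0.68 (SE; 95% confidence limits -3.54 and -0.57; edgeR adjusted p = 0.138), so it did not pass. It passed when D425 was fitted alone (-2.05, edgeR adjusted p = 0.0459), without HD-MB03 shCRX replicate 1 (-2.06, edgeR adjusted p = 0.0214) and without HD-MB03 shCRX replicate 2 (-2.06, edgeR adjusted p = 0.0218). Its SE was 0.44, 0.41 and 0.41 in these fits; why they differ was not tested.

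KIT, the stem cell factor receptor of melanocytes, mast cells and germ cells, was low throughout D425, with 6, 7 and 9 counts in shCRX and 0, 2 and 2 counts in controls. In CPM these were 0.554, 1.45 and 2.30 in shCRX and 0, 0.161 and 0.182 in controls, with no overlap. The pooled ratio was 11.6 (95% exact interval 3.94 to 46.3, counting error alone), and the test across genes did not call it (edgeR adjusted p = 0.219). ERBB2 and ERBB3 had log2 fold changes of 0.09 ± 0.45 (SE; 95% confidence limits -0.89 and 1.07; edgeR adjusted p = 0.951) and 0.12 ± 0.37 (SE; 95% confidence limits -0.69 and 0.92; edgeR adjusted p = 0.921). ERBB4, the neuregulin receptor with full kinase activity, had 10, 0 and 0 counts in shCRX and 4, 4 and 1 counts in controls. In all, 4 of the 8 members tested showed no overlap between the arms, PDGFRB, FGFR1 and KIT above and MET below, against 23% of all genes tested, and 4 had an unadjusted p under 0.05, against 2768 of all 16006 genes.

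**Figure D3:**
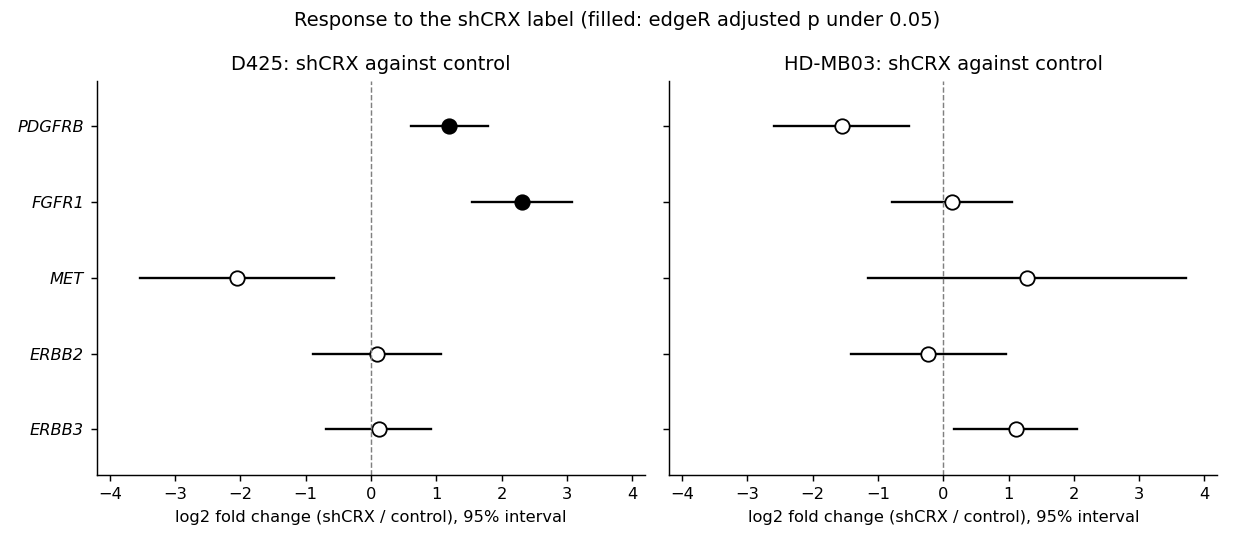
Log2 fold changes of shCRX over control libraries with 95% intervals for the 5 receptor genes expressed in both lines, D425 left and HD-MB03 right, filled where the edgeR adjusted p was under 0.05. PDGFRB (1.20) and FGFR1 (2.31) are filled in D425, and no gene is filled in HD-MB03, where PDGFRB is at -1.56.

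In HD-MB03 none of the 8 members tested passed by edgeR (0, with 2 at an unadjusted p under 0.05), against 1.51% of all genes called. DESeq2 called 1, PDGFRB (-1.63, DESeq2 adjusted p = 0.0366). Directions here follow the label, against which CRX went. PDGFRB averaged 1.97 ± 0.0478 CPM in the libraries labelled shCRX and 5.83 ± 1.62 CPM in controls (SD, n = 2 each). Those values rest on 28 and 27 counts in the libraries labelled shCRX and on 9 and 13 counts in controls. Its log2 fold change was -1.56 ± 0.48 (SE; 95% confidence limits -2.59 and -0.53; edgeR adjusted p = 0.129). In both lines the higher PDGFRB levels were in the libraries with the lower numbers, which are the shCRX libraries of D425 and the controls of HD-MB03.

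ERBB3 averaged 62.3 ± 10.5 CPM in HD-MB03 shCRX and 28.8 ± 22.6 CPM in HD-MB03 controls (SD, n = 2 each), with a log2 fold change of 1.11 ± 0.44 (SE; 95% confidence limits 0.17 and 2.05; edgeR adjusted p = 0.221). The vector library, with 12.9 CPM from 24 counts, was the low one. ERBB2 averaged 55.8 ± 9.03 CPM in HD-MB03 shCRX and 65.5 ± 3.11 CPM in HD-MB03 controls, EGFR 10.2 ± 0.0146 and 13.1 ± 9.44 CPM, and FGFR1 16.0 ± 7.31 and 14.6 ± 2.92 CPM in the same order of groups (SD, n = 2 each). Their log2 fold changes were -0.23 ± 0.54 for ERBB2, -0.36 ± 0.65 for EGFR and 0.13 ± 0.42 for FGFR1 (SE), with edgeR adjusted p of 0.863, 0.817 and 0.903. The intervals ran from -1.42 to 0.96, from -1.77 to 1.05 and from -0.79 to 1.05, so changes of about those sizes remain within the error. The arms did not overlap for PDGFRB and ERBB2, lower in the libraries labelled shCRX, nor for KIT, ERBB3 and ERBB4, higher there. That is 5 of the 8 members tested, against 52.3% of all genes tested. For KIT and ERBB4 the lack of overlap says little, since replicate 1 had 1 and 5 counts, or 0.0715 and 0.357 CPM, below the level of 1.53 CPM that 3 counts make in the shallowest control.

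The libraries labelled shCRX in HD-MB03 differed from each other in several receptors. MET had 16.8 CPM in replicate 2 and 1.29 in replicate 1, KIT 4.73 and 0.0715, ERBB4 4.23 and 0.357, and FGFR1 21.1 and 10.8. In log2 CPM replicate 2 was above replicate 1 by 3.50 for MET, 4.10 for KIT, 2.95 for ERBB4 and 0.96 for FGFR1, against a median absolute difference of 0.261 over all genes tested. Only 0.687% of genes differed by more than MET, 0.412% by more than KIT and 1.04% by more than ERBB4. PDGFRB, EGFR, ERBB2 and ERBB3 differed by 0.34 or less in either direction. Other receptor genes and co-receptors, named after their values were seen, showed the same order: FGFR3 had 30.9 CPM in replicate 2 and 2.22 in replicate 1, DDR2 15.7 and 2.72, and the neuropilin gene NRP1 9.67 and 0.071. Epithelial markers moved with them, with a summed level of 31.2 CPM in replicate 2 and 0.214 in replicate 1, of which KRT8 made up 22.1 CPM. KRT19 and CLDN3, of the same list, had 0 CPM in both. EPCAM had 22 counts, all in replicate 2 at 1.58 CPM, and 0 in the shallow controls. The exact 95% interval of its ratio to controls began at 0.742, counting error alone. The part of such cells in these values was not tested. The hairpin of each library is not given by the labels.

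KIT and ERBB4 had 0 counts in both HD-MB03 controls and 67 and 64 counts over the libraries labelled shCRX. Against a floor of 3 counts over the control group, the pooled ratios were 3.03 for KIT and 2.89 for ERBB4. The exact 95% intervals of the pooled ratios to controls began at 2.39 and 2.28, counting error alone. By edgeR the lower 95% limits were -0.89 and -0.09 on the log2 scale, and neither gene was called (edgeR adjusted p = 0.344 and 0.296). Of these counts, 66 for KIT and 59 for ERBB4 came from replicate 2. MET averaged 9.02 ± 10.9 CPM in HD-MB03 shCRX and 3.69 ± 0.670 CPM in HD-MB03 controls (SD, n = 2 each), and its log2 fold change was 1.28 ± 1.11 (SE, edgeR adjusted p = 0.595). Without replicate 2 the value for MET was -1.50, so its direction rested on that library.

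**Figure D4:**
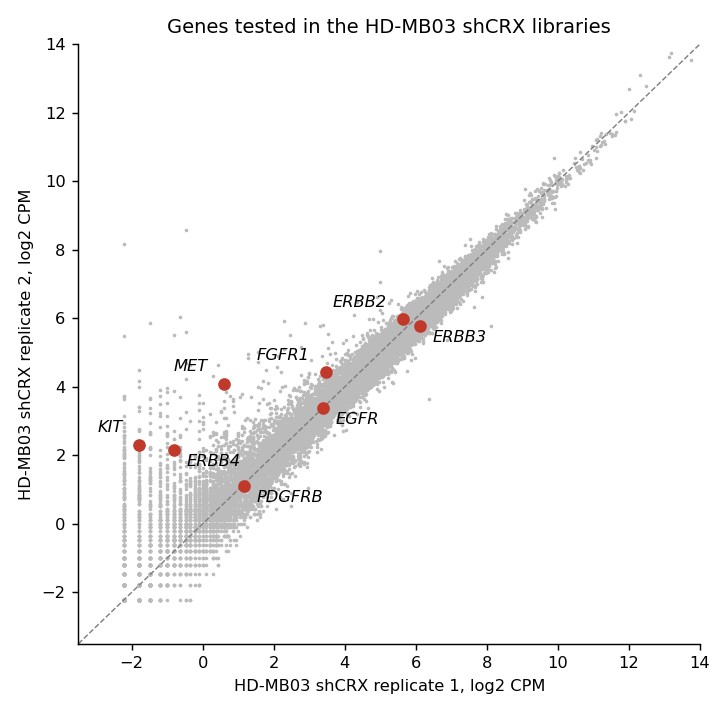
Log2 CPM of the genes tested in HD-MB03 shCRX replicate 1 (horizontal) and replicate 2 (vertical), with the 8 receptor genes tested in red and the line of equal levels dashed. MET, KIT and ERBB4 lie well above the line, by 3.50, 4.10 and 2.95, and PDGFRB and EGFR lie on it.

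In the mean of the lines none of the 8 members passed by edgeR (0, with 3 at an unadjusted p under 0.05), against 0.225% of all genes called, 0.0187% higher and 0.206% lower, and DESeq2 called 1, FGFR1 (1.19, DESeq2 adjusted p = 0.00859). The value of FGFR1 was 1.22 ± 0.28 (SE; 95% confidence limits 0.63 and 1.82; edgeR adjusted p = 0.1), that of ERBB3 0.61 ± 0.29 (SE, edgeR adjusted p = 0.385) and that of PDGFRB -0.18 ± 0.27 (SE, edgeR adjusted p = 0.813). A difference between number sets of equal size in both lines cancels in this mean. CRX moved in opposite directions in the lines, so the mean follows the label and not a lowering of CRX.

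The response differed between the lines for 2 of the 8 members, against 4.16% of all genes called, 2.67% with a higher and 1.49% with a lower value in D425. For PDGFRB the response in D425 minus that in HD-MB03 was 2.76 ± 0.55 on the log2 scale (SE; 95% confidence limits 1.56 and 3.95; edgeR adjusted p = 0.0164). For FGFR1 it was 2.18 ± 0.55 (SE; 95% confidence limits 0.98 and 3.38; edgeR adjusted p = 0.0454), and for MET it was -3.34 ± 1.28 (SE, edgeR adjusted p = 0.163). A difference between number sets of equal size in both lines would enter this comparison at 2 times its size. It would also enter the comparison within each line, with opposite signs in D425 and HD-MB03. The PDGFRB call did not hold without HD-MB03 shCRX replicate 1 (2.77), HD-MB03 shCRX replicate 2 (2.72), or the HD-MB03 parental (2.99) or vector (2.41) library, and held without any 1 of the 6 D425 libraries. The FGFR1 call was kept without D425 parental replicate 1, D425 shCRX replicate 1 or HD-MB03 shCRX replicate 2, but not without D425 shCRX replicate 2 (2.04), D425 shCRX replicate 3 (2.15), D425 parental replicate 2 (2.05), the D425 vector library (2.02), HD-MB03 shCRX replicate 1 (1.76), the HD-MB03 parental library (2.35) or the HD-MB03 vector library (1.93). MET passed without HD-MB03 shCRX replicate 1 (-4.24, edgeR adjusted p = 0.0306) and was at -0.56 without HD-MB03 shCRX replicate 2 (edgeR adjusted p = 0.821), so its size rested on which of these 2 libraries was kept.

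Among the other genes of these pathways, the related receptor FGFR3 rose with FGFR1 in D425, 1 of the 5 tested genes of the ERBB, MET, FGFR and TRK classes outside the set. FGFR3 had 18.4, 28.3 and 27.1 CPM in shCRX, against 1.74, 2.26 and 0.454 CPM in controls, a log2 difference of 4.01 ± 0.81 (SE; edgeR adjusted p = 0.0246). FGFR2, named for its high level after its values were seen, had 130.036, 163.787 and 118.938 CPM in D425 shCRX and 90.0, 94.9 and 69.9 CPM in D425 controls and was not called. Of 19 other receptor tyrosine kinases tested, 3 rose and 1 fell. The collagen receptor DDR1 rose by 1.42 ± 0.33 on the log2 scale, the TAM family receptor TYRO3 by 0.98 ± 0.21 and the neuronal kinase AATK by 1.22 ± 0.25, and the insulin receptor INSR had a value of -1.11 ± 0.27 (SE, edgeR adjusted p from 0.021 for AATK to 0.0452 for INSR).

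Ligand genes of the PDGF receptors fell in D425, 2 of the 3 tested genes of the list of PDGF and KIT receptor ligands. PDGFC, whose product acts mainly through PDGFRA, had 18.7, 9.51 and 16.4 CPM in shCRX and 36.5, 33.6 and 47.4 CPM in controls (log2 fold change -1.38 ± 0.26, SE, edgeR adjusted p = 0.0145). PDGFD, which encodes a PDGFRB ligand, had 4 counts over the shCRX libraries and 79 over the controls (log2 fold change -3.16 ± 0.74, SE, edgeR adjusted p = 0.0438), and this call was lost without any 1 of the 10 libraries. Genes for PDGF-A and PDGF-B were at or below 0.185 CPM in every D425 library. Of 7 tested EGF family ligands 1 rose, HBEGF, with 7.57, 16.3 and 8.70 CPM in shCRX and 2.07, 3.63 and 2.45 CPM in controls (log2 fold change 1.99 ± 0.45, SE, edgeR adjusted p = 0.0332). Of 8 tested ligands of MET, FGF and TRK receptors 1 rose, FGF5, with 3.41, 7.65 and 4.35 CPM in shCRX and 0.896, 0.565 and 0.454 CPM in controls (log2 fold change 2.93 ± 0.53, SE, edgeR adjusted p = 0.0124).

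Downstream, none of 45 tested adaptors and proximal signalling genes was called in D425 (0 by edgeR, with 12 at an unadjusted p under 0.05), nor any of 14 chaperone and trafficking genes (0, with 1 at an unadjusted p under 0.05). DESeq2 was not counted over these lists. Of 26 negative regulators 2 rose. SPRY4, a feedback inhibitor of FGF and RAS-ERK signalling, had 19.8, 20.1 and 6.14 CPM in shCRX and 2.18, 2.42 and 4.00 CPM in controls (log2 fold change 2.44 ± 0.45, SE, edgeR adjusted p = 0.0137). INPP5D, the phosphatase SHIP1, had 37 counts over the shCRX libraries and 10 over the controls (log2 fold change 2.73 ± 0.53, SE, edgeR adjusted p = 0.0168). DUSP6, another ERK feedback gene, had 19.9, 8.48 and 5.88 CPM in shCRX and 3.86, 0.807 and 3.00 CPM in controls and was not called. Of 11 immediate early genes 1 rose, FOSL2, by a log2 value of 2.15 ± 0.45 (SE; edgeR adjusted p = 0.0237). FOS and EGR1, singled out after their values were seen, were uneven within groups, with EGR1 at 5.26, 43.0 and 6.65 CPM in D425 shCRX and at 160.965, 3.07 and 3.73 CPM in D425 controls.

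Of 15 tested co-receptor and ligand-processing genes 1 fell in D425. It was CD44, a co-receptor of MET and carrier of heparin-binding ligands, with 0 counts in the shCRX libraries and 35 in the controls (edgeR adjusted p = 0.0237). Against a floor of 3 counts over the shCRX group, the pooled ratio of controls to shCRX was 5.54. The exact 95% interval of the pooled ratio began at 4.27, counting error alone. The median log2 fold change in D425 was 0.34 over the 19 other receptor tyrosine kinases and 0.11 over the 45 adaptors, against 0.02 over all genes tested. None of the 13 calls of pathway genes in D425 was kept without each of the 10 libraries in turn. AATK, CD44 and INPP5D were kept in 7 of these 10 fits, HBEGF and FOSL2 in 6, DDR1 and TYRO3 in 5, FGFR3 and INSR in 4 and PDGFD in 0, all in the same direction. FGF5 and PDGFC were lost without the D425 vector library alone, with values of 2.76 and -1.22, and SPRY4 without D425 parental replicate 1 alone, with a value of 2.27.

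**Figure D5:**
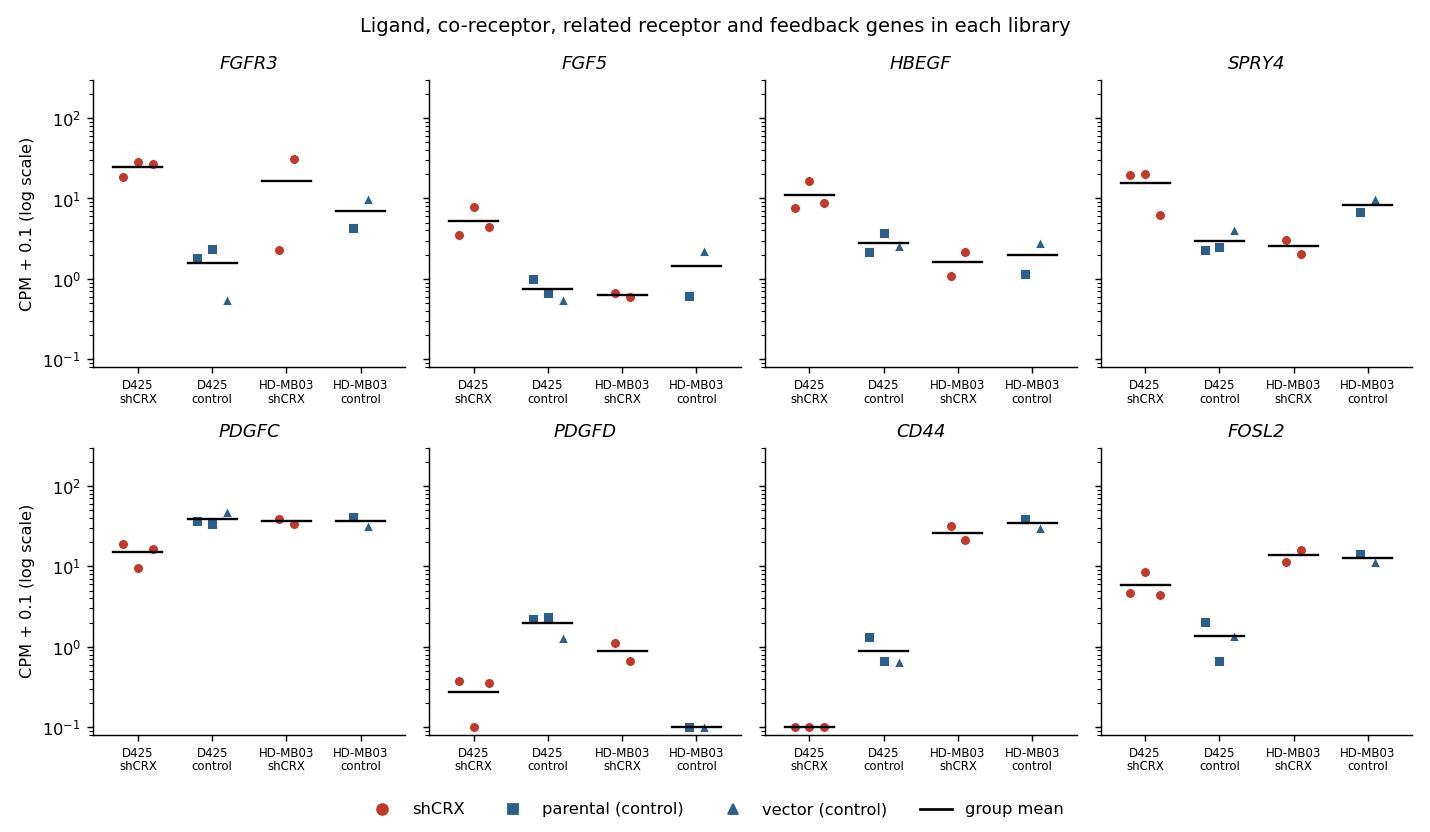
CPM + 0.1 on a log axis in each library for FGFR3, the ligand genes FGF5, HBEGF, PDGFC and PDGFD, the feedback gene SPRY4, the co-receptor gene CD44 and the immediate early gene FOSL2, with a bar at each group mean. In D425 FGFR3, FGF5, HBEGF, SPRY4 and FOSL2 are higher and PDGFC, PDGFD and CD44 lower in all 3 shCRX libraries than in all 3 controls, and in HD-MB03 none of the 8 genes was called.

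In HD-MB03 and in the mean of the lines 0 genes of these pathway lists were called by edgeR. At an unadjusted p under 0.05 in HD-MB03 there were 8 of 45 adaptors, 4 of 19 other receptor tyrosine kinases, 4 of 15 co-receptors, 2 of 26 negative regulators and 2 of 11 immediate early genes, against 2747 of all 16006 genes tested, a share close to that of the adaptors. EGR1 had 278.087 and 54.3 CPM in the libraries labelled shCRX and 10.4 and 11.3 CPM in controls, and FOS 118.282 and 40.7 CPM in the libraries labelled shCRX and 0 and 1.61 CPM in controls.

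Between the lines, receptors and ligands outside the set also differed. CSF1R, the receptor of colony stimulating factor 1 and a relative of KIT, was higher in D425 by a log2 value of 5.15 ± 1.05 (SE; edgeR adjusted p = 0.00189), with 2.03, 0.620 and 2.046 CPM in D425 shCRX and 2.57, 1.29 and 2.18 CPM in D425 controls, against 0.286 and 0.072 CPM in HD-MB03 shCRX and 0 counts in HD-MB03 controls. The leukocyte gene PTPRC was also higher in D425, with 10.6 CPM in the vector library, 0 to 1.79 CPM in the other D425 libraries and 0 counts in HD-MB03. Of the other blood markers, CD79A did not exceed 0.273 CPM and CD68 did not exceed 0.091 CPM in any library. AIF1 and CD3E had 0 counts throughout. The part of blood cells in the CSF1R value was not tested. Of 19 other receptor tyrosine kinases 7 were higher and 7 lower in D425. ALK was higher by 5.99 ± 0.70 and the collagen receptor DDR2 by 4.59 ± 0.64, and the lymphatic receptor FLT4 had a value of -3.44 ± 0.64 (SE, edgeR adjusted p from 2.36e-05 for ALK to 0.000874 for FLT4). ALK moved to 8.24 without the HD-MB03 parental library, and DDR2 moved to 5.46 and FLT4 to -2.37 without HD-MB03 shCRX replicate 2. The FGF receptor relative FGFRL1 was lower in D425, at -1.91 ± 0.14 (SE; edgeR adjusted p = 3.86e-07).

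The neuregulin gene NRG1, which encodes a ligand of ERBB3 and ERBB4, was lower in D425 than in HD-MB03, as ERBB3 was. NRG1 had 0.092, 0.207 and 0.256 CPM in D425 shCRX and 0.616, 0.323 and 0.545 CPM in D425 controls, against 5.29 and 5.30 CPM in HD-MB03 shCRX and 8.33 and 2.68 CPM in HD-MB03 controls (log2 fold change -4.19 ± 0.46, SE, edgeR adjusted p = 1.3e-05). The EGFR and ERBB4 ligand gene BTC had a value of -5.19 ± 0.92, the EGFR ligand gene EGF 2.54 ± 0.62 and the ERBB4 ligand gene NRG3 4.37 ± 0.66 (SE, edgeR adjusted p from 0.000175 for NRG3 to 0.0048 for EGF). EGF and NRG3 moved to 5.55 and 7.10 without the HD-MB03 parental library, and EGF to 3.30 without HD-MB03 shCRX replicate 2. Within the low number set EGF was at 1.76 (edgeR adjusted p = 0.218) and NRG3 at 2.54 (edgeR adjusted p = 0.0939). In all, 3 of 7 EGF family ligands were higher and 2 lower in D425. CD44 was lower in D425 too, 1 of 7 co-receptor genes that were lower, against 1 that was higher, of 15 tested. It had 0 counts in D425 shCRX and 1.23, 0.565 and 0.545 CPM in D425 controls, against 31.4 and 20.9 CPM in HD-MB03 shCRX and 39.0 and 30.0 CPM in HD-MB03 controls. Its fitted log2 value of -8.15 depends on the prior count because of the 0 counts, and ranged from -11.3 to -4.98 over the alternatives (edgeR adjusted p = 1.22e-07). NTF3, the gene of the NTRK3 ligand, was lower too (-4.84 ± 0.55, SE, edgeR adjusted p = 1.85e-05; -6.29 without D425 shCRX replicate 1), while the receptor gene NTRK3 had 4 counts in all. Of 45 adaptors 11 were higher and 7 lower in D425, with the largest value for PLCG2 (5.13 ± 0.77, SE, edgeR adjusted p = 0.000252). These counts stand against 24.4% of all genes higher and 21.6% lower.

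Across the 10 libraries of both lines, the genes most like each called member in log2 CPM were named by Pearson r, as a description with no test. For PDGFRB they were POLD4 (r = 0.989), TIMP3 (0.983) and PITPNM1 (0.981), and for FGFR1 they were ATPAF1 (0.958), SYDE1 (0.938) and UNC5B (0.934). MET was closest to ACP3 (0.960) and EYA1 (0.954). EGFR was closest to IL11RA, FKBP11 and TNFRSF10A (0.990 each), ERBB2 to GALNT14 (0.978), SRRM3 (0.971) and NIPSNAP3B (0.964), and ERBB3 to XIRP2 (0.978), MT3 (0.975) and NGEF (0.973). The libraries share line, number set and depth, and each of these r values spans the difference between the lines.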

How the data were processed

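The values that the authors deposited were raw counts of reads in each gene for each library. The submitters' processing notes name GRCh37 (hg19) and the tools HISAT2, HTSeq, bcl2fastq and DESeq2, with versions and the strand setting not given in the sources used here, so reads of overlapping and antisense genes are uncertain. Summary entries (5 per file) were left out. Symbols, exon lengths and GC content came from an annotation of GRCh38, so no positions of the counted genes are given.

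Counts were tested in R 4.3.3 with edgeR 4.0.16 (TMM scaling, filterByExpr, robust quasi-likelihood fit). The model had 1 mean for each of the 4 line and arm groups, which left 6 residual degrees of freedom. The filter kept 16006 genes, with Benjamini-Hochberg adjustment over all of them, a threshold of 0.05 and two-sided tests. The biological coefficient of variation was 26.0%. The procedure was tested on simulated data. A floor is 3 counts, and exact intervals cover counting error alone. Alternatives used DESeq2 1.42.0 and limma 3.58.1. Named genes were the members, CRX, at most 4 called genes per pathway list and comparison by the size of the fold change, and the 3 genes most like each called member. The members and lists were chosen with earlier results of these data known. Some genes that this rule names are not reported here.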

Additional observations from a re-analysis of the deposited data

Results flagged for a closer look

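The response to the shCRX label differed between the lines by the test of the difference itself (edgeR, D425 minus HD-MB03, log2 scale) for 2 receptor genes, 8 genes of their pathways and CRX. Over all 16006 genes tested, 4.16% were called. A difference between number sets cannot be told apart from such a response, since it enters this test in full. The pathway genes were 2 of 19 other receptor tyrosine kinases, 1 of 3 PDGF and KIT receptor ligands and 1 of 8 MET, FGF and TRK receptor ligands. The rest were 1 of 15 co-receptor genes, 1 of 45 adaptors and 2 of 26 negative regulators tested. For PDGFRB the difference was 2.76 (54.1 CPM in D425 shCRX and 23.7 in D425 controls, 1.97 in HD-MB03 shCRX and 5.83 in HD-MB03 controls), and for FGFR1 it was 2.18 (13.1 and 2.58 CPM in D425 shCRX and controls, 16.0 and 14.6 in HD-MB03 shCRX and controls). For CRX it was -2.14 (edgeR adjusted p = 0.0199).

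SPRY4 had a difference of 4.19 (edgeR adjusted p = 0.0102), with mean levels of 15.3 and 2.87 CPM in D425 shCRX and controls and 2.43 and 8.21 CPM in HD-MB03 shCRX and controls, and it was kept without each of the 10 libraries in turn. TYRO3 differed by 1.62 (edgeR adjusted p = 0.0176) and AATK by 1.93 (edgeR adjusted p = 0.0185), kept without 7 and 6 of the 10 libraries in turn. FGF5 differed by 4.22 (edgeR adjusted p = 0.0444) and INPP5D by 3.10 (edgeR adjusted p = 0.0377), each kept without 1 of the 10 libraries. MAP2K2, which encodes the kinase MEK2, differed by 1.28 (edgeR adjusted p = 0.0405), kept without 4 of the 10.

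PDGFD had a fitted difference of -9.05 and CD44 one of -5.54 (edgeR adjusted p = 0.043 and 0.0437), kept without 2 and 1 of the 10 libraries in turn. Both values depend on the prior count, because PDGFD had 0 counts in HD-MB03 controls, against 22 in HD-MB03 shCRX, and CD44 had 0 counts in D425 shCRX, against 35 in D425 controls.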

How the results depend on the processing

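The number of members called changed with several settings. In D425 it was 2, and it fell to 0 against vector controls only, 0 against parental controls only, 1 (FGFR1) with the GC and length trend removed, and 1 to 3 without 1 library. In HD-MB03 it was 0, against 1 (PDGFRB) with DESeq2, 3 (ERBB3, KIT and PDGFRB) with no filter on low counts, and 0 to 0 without 1 library. In the mean of the lines it was 0, against 1 (FGFR1) with DESeq2, 2 (FGFR1 and KIT) with no filter, and 0 to 0 without 1 library. For the difference between lines it was 2, against 0 with limma-voom, 0 with either kind of control on its own, 1 (PDGFRB) in libraries thinned to equal depth or with the GC and length trend removed, and 0 to 2 without 1 library. Between lines it was 6, and it ran from 4 (shCRX libraries alone, or the low number set alone) to 8 (the high number set alone) over the alternatives, and from 5 to 6 without 1 library. The causes were not tested.

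D425 parental and shCRX libraries 1 and 2 share a number, and the correlation of their differences across genes was 0.0137. With the replicate block 0 members and 42 genes were called, and without it on the same 4 libraries 0 and 0.

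Small fold changes that were not called turned sign. EGFR in HD-MB03 was 0.64 with vector controls alone and ranged from -0.93 to 0.69 without 1 library. FGFR1 in HD-MB03 was -0.082 with vector controls alone and ranged from -0.42 to 0.54. ERBB2 in D425 was -0.12 with parental controls alone, -0.21 thinned, -0.48 with the replicate block and -0.18 without it on the same libraries, and ranged from -0.49 to 0.48. ERBB3 in D425 was -0.039 with parental controls alone and ranged from -0.029 to 0.29. MET in HD-MB03 ranged from -1.50 to 2.18, and PDGFRB in the mean of the lines was 0.070 with parental controls alone.

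Over all genes in D425, 476 were called, against 986 with DESeq2, 1211 with no filter, 8 with vector controls alone, 104 with parental controls alone, and 217, 185 and 243 without parental replicate 1, the vector library and shCRX replicate 3. With library totals in place of TMM the median of all genes moved to 0.152 and the calls to 367 higher and 151 lower, against 257 and 219. In HD-MB03, 241 genes were called, against 806 with DESeq2, 790 with no filter, 1 with vector and 62 with parental controls alone, 495 with the line fitted alone, and as few as 15 without shCRX replicate 2. In the mean of the lines 36 were called, against 401 with DESeq2, 405 with no filter, 18 with library totals or limma-voom, 0 with vector and 2 with parental controls alone, 59 thinned, 70 with the trend removed and 3 to 71 without 1 library. For the difference 666 were called, against 1370 with DESeq2, 1579 with no filter, 3 with vector and 227 with parental controls alone, 382 with the trend removed and at lowest 177 without 1 library. Between lines 7365 were called, against 4613 with vector controls alone. FGFR1 kept its call in D425 except with vector or parental controls alone and on the 4 paired libraries. Depth limits KIT, ERBB4, PDGFRA and NTRK3 most, since 3 counts correspond to 1.53 CPM in the shallowest library.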
